A study of Mus musculus with 14 samples.

Results

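The 10 genes described here encode Dis3l2, its paralogs Dis3 and Dis3l, and 7 further proteins that degrade or trim RNA or assist in this (Exosc10, Xrn1, Xrn2, Eri1, Usb1, Skiv2l and Ttc37). They were chosen by name, and all 10 were found among the 16181 protein-coding genes for which CPM, read counts scaled to a common library total, were deposited, out of 50686 genes in the count table. The question was whether the other nucleases moved while Dis3l2 was depleted and later returned. PolyA RNA was sequenced from 2 mouse embryonic stem cell (mESC) lines, each carrying a stable short hairpin RNA (shRNA). The shLacZ line, whose hairpin is directed at a bacterial gene, was the control, and the hairpin of the shDIS3L2 line is directed at Dis3l2. At d0 the mESCs were undifferentiated, in medium with LIF and 2i. On every second day from d2 to d12 they were embryoid bodies (EBs) grown in serum without LIF and 2i, which are aggregates of spontaneously differentiating cells. Both lines derive from a reporter line that expresses GFP from the Osr1 locus. There was 1 library per line and day, 14 in all, and each line is 1 stable culture followed through time. Differences between the lines therefore cannot be told apart from differences between these 2 cultures.

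RNA is degraded from both ends. The exosome, whose core is a ring of catalytically inactive subunits, works from the 3′ end through its associated nucleases DIS3 or DIS3L and EXOSC10, while XRN1 and XRN2 work from the 5′ end. DIS3L2 does not bind the exosome. It degrades RNAs that carry a 3′ tail of uridines, added by the terminal uridyltransferases TUT4 and TUT7, and in mESCs it is known for removing the precursor of let-7 microRNA after LIN28A has recruited these enzymes.

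Between 7178712 and 39888099 reads were counted per library, and 3 reads corresponded to between 0.0752 and 0.418 CPM. The mESC markers Pou5f1, Nanog, Sox2, Zfp42, Esrrb and Tfcp2l1 summed at d0 to 2974 CPM in the control and to 2128 in the knockdown, and from d6 on to between 52.4 and 414. Both d0 libraries stood apart. Their factors under trimmed mean of M-values (TMM) scaling were 0.753 and 0.623, against 1.02 to 1.12 in the other 12 libraries, and 78.3% and 75.2% of their reads fell on listed protein-coding genes, against 85.6% to 90.5%. CPM below is relative to all reads of the library, and folds with their 95% exact intervals on a single day cover counting error only. At d0 the median listed gene was lower in shDIS3L2 by this measure (median log2 fold -0.31 over 13542 genes), while on the other days the median was between -0.07 and 0.04. The fitted tests used TMM. In the tests of the lines the days stand in for replicates, so the p-values measure how far the line difference varied between days. In the test of any change over days and that of EB days against d0, the 2 lines of a day stand in for replicates. The slope tests measure the spread of libraries around straight lines. None of these p-values measures the spread between independent cultures. In whole EBs, fewer cells of a type and less RNA per cell cannot be told apart.

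Dis3l2 RNA was low in shDIS3L2 at d0 and rose over the time course to near the control. In shLacZ the successive values from d0 to d12 were 28.7, 15.8, 22.0, 23.8, 20.2, 19.3 and 19.7 CPM. In shDIS3L2 it was at 3.93, 4.44, 7.05, 13.1, 19.6, 18.3 and 14.9 CPM on the same days, lower than the control on each. As a share of the control this was 13.7% at d0 (95% interval 11.1% to 16.7%), 28.1% at d2, 32.1% at d4 and 55.2% at d6 (44.9% to 67.5%). At d8 and d10 it was 97.1% (83.7% to 113%) and 94.98% (78.8% to 115%), and at d12 75.4% (60.9% to 93.4%).

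The narrowing from d0 to d2 went with a fall in the control, and no rise in shDIS3L2 was shown at that step. From d0 to d2 shLacZ went to 0.55-fold of its d0 level (0.491 to 0.616), while shDIS3L2 stayed at 1.13-fold (0.847 to 1.51). From d0 to d12 shDIS3L2 rose 3.79-fold (2.94 to 4.90). With TMM sizes in place of library totals the step from d0 to d2 was 0.384-fold in shLacZ and 0.675-fold in shDIS3L2, a fall in both lines. With DESeq2 size factors these steps were 0.385 and 0.605-fold. Depth was lowest for this gene in shDIS3L2 at d2, with 95 reads, and all other libraries had between 104 and 1146.

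The test of the change in the line difference between d0 to d4 and d6 to d12 gave a log2 change of 1.61 (SE 0.29, edgeR adjusted p = 0.0118), and Dis3l2 was the only one of the 10 genes called, in a comparison in which 6.14% of the 16739 genes tested were called in this direction and 6.41% in the other. The fitted line difference was -2.001 on the log2 scale over d0 to d4 (SE 0.24, adjusted p = 0.232), and between -2.19 and -1.71, and called, when any of these 3 days was left out. This was a period in which edgeR called 0 of 17419 genes (0.0%), while 1374 had an unadjusted p under the same threshold and DESeq2 called 19, Dis3l2 among them. Over d6 to d12 it was -0.34 (SE 0.16, adjusted p = 0.131). Over all 7 days it was -1.08 (SE 0.30, adjusted p = 0.0618), with an adjusted p from 0.00627 up to 1 over the alternatives. A straight line over the 6 EB days differed in slope between the lines by 0.18 log2 units per day (SE 0.07, unadjusted p = 0.0272, adjusted p = 0.756). edgeR called 0 of 16398 genes (0.0%) there, with 1019 at an unadjusted p under the threshold, and DESeq2 called 82 genes but no member.

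**Figure D1:**
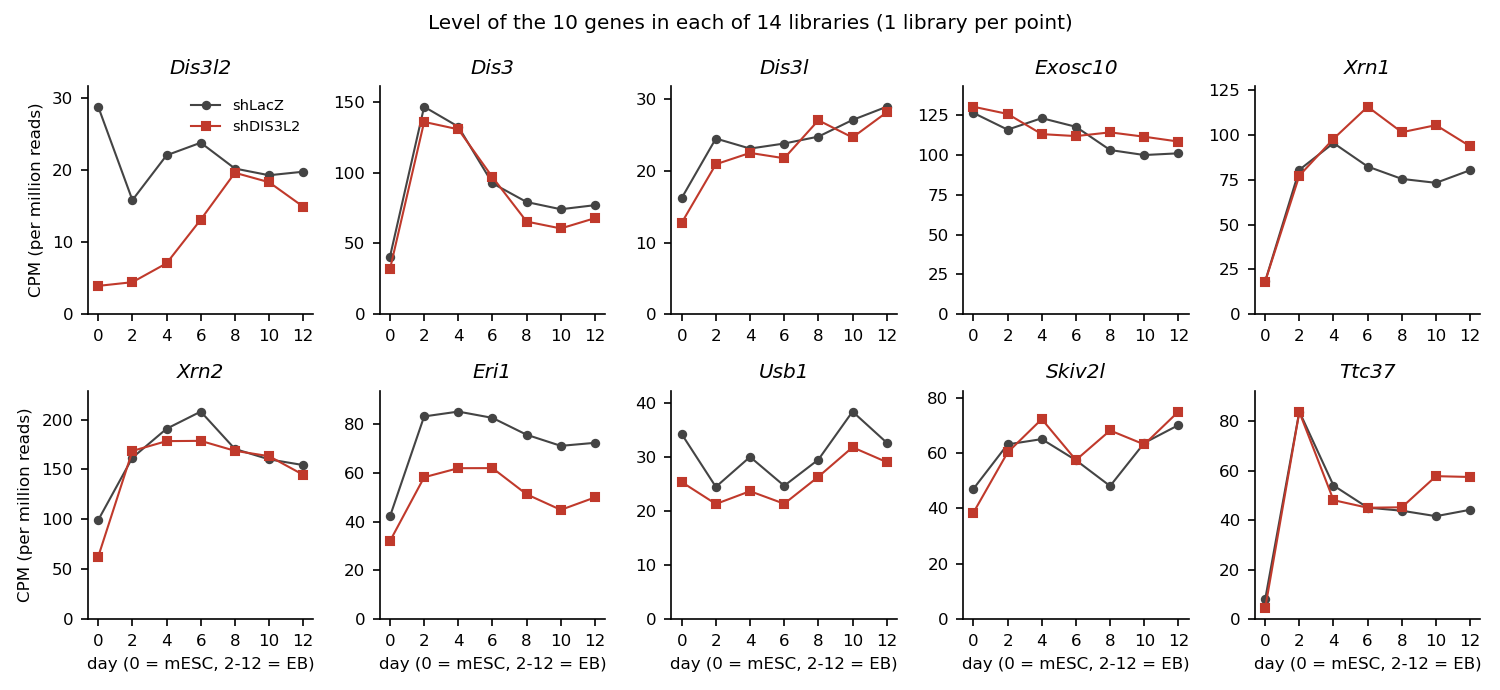
Level of each of the 10 genes in CPM (vertical axis, from 0, scaled per gene) against day, with 1 library per point, shLacZ as grey circles and shDIS3L2 as red squares. Dis3l2 in shDIS3L2 rises from 3.93 CPM at d0 to 19.6 at d8, and Ttc37, Xrn1 and Dis3 rise steeply in both lines from d0 to d2.

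Dis3, the catalytic subunit of the nuclear exosome, was at 0.783 to 1.05-fold of the control in CPM on single days. Its level was 40.6 CPM in shLacZ and 31.8 in shDIS3L2 at d0, 146 and 136 at d2, 132 and 130 at d4, and 92.4 and 96.7 at d6. It was then 79.2 and 65.4 at d8, 74.1 and 60.5 at d10, and 77.0 and 67.8 at d12. The fold was 0.783 (0.720 to 0.852) at d0, 0.927 (0.883 to 0.973) at d2 and 0.826 (0.764 to 0.892) at d8. At d10 and d12 the fold was 0.817 (0.741 to 0.901) and 0.881 (0.795 to 0.976). The intervals at d4 and d6 included 1. At d0 the log2 fold was -0.08 with TMM sizes and 0.04 with DESeq2 size factors. The fitted line difference was -0.16 (2 SE either side, -0.31 to -0.01, adjusted p = 0.196) over 7 days, and it did not pass the test in either period. Without d6 the later difference was called, at -0.26 (adjusted p = 0.0361). Over d0 to d4, while Dis3l2 was low, the Dis3 difference had limits of -0.27 to 0.19. The lack of a call there cannot show that Dis3 was unchanged, since this test called no gene, Dis3l2 included.

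Dis3l, the paralog that serves the cytoplasmic exosome, lay between 16.2 and 29.0 CPM in shLacZ and between 12.8 and 28.2 CPM in shDIS3L2. Its line difference over 7 days was -0.10 (-0.27 to 0.06, adjusted p = 0.411) and over d0 to d4 -0.09 (-0.41 to 0.23). Per kilobase of the deposited gene length (RPKM), Dis3 held 63.7% of the summed level of the 3 paralogs in shLacZ at d0 and Dis3l2 held 18.9%, against 75.4% and 3.90% in shDIS3L2. From d2 on Dis3 held between 71.0% and 89.4% in both lines. Dis3l2 was at 7.86% to 8.07% in shLacZ and 6.68% to 8.99% in shDIS3L2 from d8 to d12. The deposited length of Dis3 is 3722 bases, while GENCODE M21 gives 7754 exonic bases for it, so its level per length depends on the annotation. Of these bases 325 overlap Pibf1 on the other strand, and the strand setting of the counting was not given in the sources used here.

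Exosc10, the second nuclease of the nuclear exosome, was the steadiest of the 10 genes in CPM. It lay between 99.98 and 126 CPM in shLacZ and between 108 and 130 in shDIS3L2. The fitted line difference was 0.06 (-0.08 to 0.20, adjusted p = 0.591) over 7 days. On single days the fold of shDIS3L2 over shLacZ lay between 0.919 and 1.11 in CPM. At d0 the log2 fold was 0.04 in CPM, 0.32 with TMM sizes and 0.43 with DESeq2 size factors.

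Xrn1, the cytoplasmic 5′ to 3′ exonuclease that degrades decapped mRNA, was alike in the lines up to d4 in CPM and higher in shDIS3L2 afterwards. In shLacZ it was at 18.4, 80.6, 95.6, 82.5, 75.6, 73.4 and 80.4 CPM from d0 to d12. In shDIS3L2 it was at 18.3, 77.4, 97.9, 116, 102, 106 and 93.7 CPM. From d6 to d12 all 4 shDIS3L2 libraries lay above all 4 shLacZ libraries.

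The fold of Xrn1 was 0.995 (0.885 to 1.12) at d0, 0.960 at d2 and 1.02 at d4. It was then 1.40 (1.29 to 1.53) at d6, 1.34 at d8, 1.44 at d10 and 1.17 (1.06 to 1.28) at d12. The likeness at d0 depended on the scaling. The log2 fold at d0 was 0.27 with TMM sizes and 0.38 with DESeq2 size factors, against 0.13 and 0.14 at d12. The line difference over d6 to d12 was 0.41 on the log2 scale (SE 0.08, adjusted p = 0.00728, and 0.00104 to 0.0427 over 9 alternatives), in a comparison where 19.7% of 16016 genes were called higher and 19.2% lower. Of the 10 members 1 was called higher and 1 lower, so the members were called no more often than genes in general. The change from the early to the late period was 0.26 (SE 0.14, adjusted p = 0.228), so a difference between the periods was not shown. Over 7 days the difference was 0.24 (SE 0.08, adjusted p = 0.0962), and it was called only without d2 (0.32, adjusted p = 0.0499). In the same late libraries the mesenchyme markers Col1a1, Col1a2, Col3a1 and Pdgfra summed to 760 to 15218 CPM in shDIS3L2 and 287 to 1657 in shLacZ, and the visceral endoderm markers Afp, Ttr and Apoa1 to 84.7 to 707 and 246 to 2312. Of the mesenchyme markers, Pdgfra alone was at 174 to 628 CPM in shDIS3L2 and 204 to 480 in shLacZ, and was lower in shDIS3L2 at d6. The part of these markers in the difference was not tested. Of the exonic bases of Xrn1, 0.99% and 3.25% overlap antisense genes.

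Xrn2, the nuclear 5′ to 3′ exonuclease that acts in transcription termination, lay between 99.3 and 208 CPM in shLacZ and between 62.6 and 179 in shDIS3L2. It was lower in shDIS3L2 at d0, at 0.630-fold (0.595 to 0.668), and between 0.859 and 1.04-fold on the other days. The d0 fold was less than 1.5-fold with TMM sizes. Over 7 days the line difference was -0.14 (-0.28 to 0.01, adjusted p = 0.242).

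Eri1, a 3′ to 5′ exonuclease that trims the ends of histone mRNAs and of 5.8S ribosomal RNA, was lower in shDIS3L2 on every day. In shLacZ it was at 42.1, 83.1, 85.1, 82.5, 75.6, 71.1 and 72.3 CPM from d0 to d12, and in shDIS3L2 at 31.99, 58.2, 61.9, 61.9, 51.2, 44.8 and 49.9. Among the EB libraries the highest shDIS3L2 value was below the lowest shLacZ value. The fold in CPM lay between 0.630 (0.568 to 0.700) at d10 and 0.760 (0.699 to 0.826) at d0, with every interval below 1. At d0 it depended on the scaling, with a log2 fold of -0.40 in CPM, -0.12 with TMM sizes and -0.006 with DESeq2 size factors.

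The fold of Eri1 was lowest at d10, when Dis3l2 was near the control. It was -0.50 over 7 days (SE 0.08, adjusted p = 0.0184) and -0.55 over d6 to d12 (SE 0.07, adjusted p = 0.00191). Over 7 days Eri1 was the only member called, where 4.68% of 16739 genes were called lower and 1.90% higher. This call was lost when d6, d8, d10 or d12 was left out, where 0 to 16 genes were called in all, with log2 differences of -0.51 to -0.46, and without the day block (-0.50). The call over d6 to d12 held under all 9 alternatives. The change between the periods was -0.26 (SE 0.14, adjusted p = 0.247).

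Usb1, which trims the uridine tail of U6 small nuclear RNA, was also lower in shDIS3L2 on all 7 days, at 0.741 to 0.893-fold in CPM. At d0 the log2 fold was -0.43 in CPM, -0.16 with TMM sizes and -0.04 with DESeq2 size factors. Usb1 lay between 24.5 and 38.5 CPM in shLacZ and between 21.4 and 31.9 in shDIS3L2, and the ranges overlapped. Its line difference of -0.25 over 7 days (SE 0.07, adjusted p = 0.0745) and -0.21 over d6 to d12 (SE 0.08, adjusted p = 0.0808) did not pass the test. Without d0 the first was called (adjusted p = 0.0497), and with listed genes only the second (adjusted p = 0.0441).

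Eri1 (GRCm38, chromosome 8, 35465253 to 35496196, minus strand) and Usb1 (chromosome 8, 95332284 to 95347507, plus strand) lie on the same chromosome, and the genes of chromosome 8 as a whole were lower in shDIS3L2. Its median log2 fold was between -0.48 and -0.28 on the 7 days, and between 71.9% and 87.7% of its 722 other genes were lower. The medians of the other 19 chromosomes lay between -0.45 and -0.26 at d0 and between -0.16 and 0.16 from d6 on. Chromosome 16 was at -0.29 at d2 and -0.23 at d4, beside -0.28 and -0.29 for chromosome 8. By the mean log2 fold over 7 days chromosome 8 was the lowest of 20 chromosomes (median -0.34). Of 723 other genes on it 189 had a lower mean than Eri1 (-0.51) and 451 a lower mean than Usb1 (-0.26). In the fit over d6 to d12, 43.0% of 881 other chromosome 8 genes were called lower, against 19.2% of all genes.

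Set against the chromosome 8 median of -0.28, the 7-day difference of Eri1 was -0.22 and that of Usb1 0.04. Of the 8 genes nearest to Eri1 among those compared, 4 on each side, Dusp4 (mean log2 fold -0.98), Tnks (-0.67), 6430573F11Rik (-0.61) and Lonrf1 (-0.40) were lower on all 7 days. Ppp1r3b (-0.38) and Saraf (-0.34) were lower on 6 days, Prag1 (-0.21) on 5 and Mfhas1 (0.22) on 3. The part of the chromosome in the values of Eri1 and Usb1 was not tested further.

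**Figure D2:**
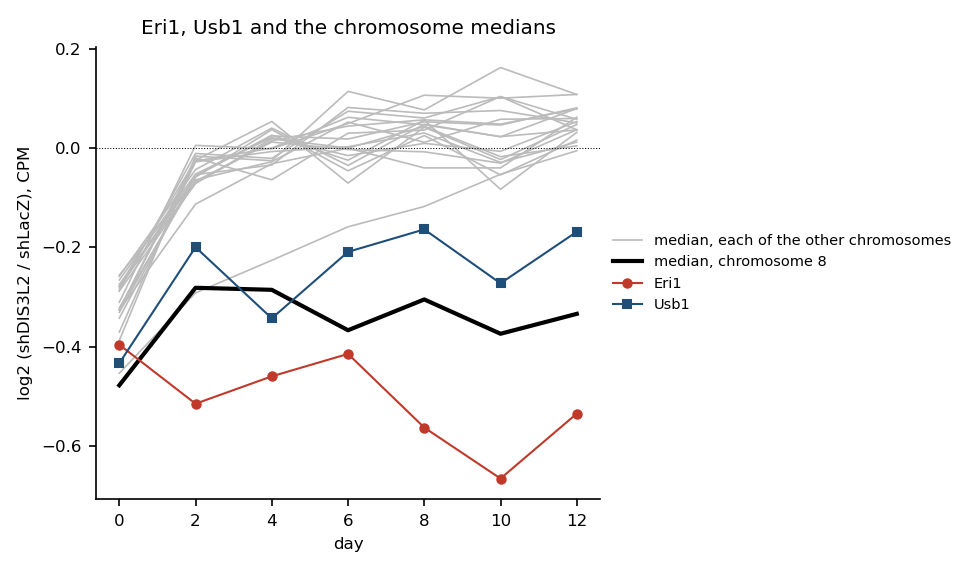
The log2 fold of shDIS3L2 over shLacZ in CPM (vertical axis) on each day (horizontal axis) for Eri1 (red circles) and Usb1 (blue squares), the median of the other chromosome 8 genes (black) and the median of each of the other 19 chromosomes (grey). Both genes and the black line are below 0 on all 7 days, and the grey lines lie between -0.16 and 0.16 from d6 on. At d2 the grey line of chromosome 16 (-0.29) is just below the black line (-0.28).

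Skiv2l and Ttc37 encode the helicase and the scaffold of the SKI complex, which feeds mRNA into the cytoplasmic exosome. Skiv2l lay between 47.1 and 70.1 CPM in shLacZ and between 38.5 and 75.01 in shDIS3L2. Its fold was 0.817 (0.757 to 0.883) at d0 and 1.42 (1.30 to 1.55) at d8, and between 0.954 and 1.11 on the other days. The d0 value depended on the scaling, with a log2 fold of -0.29 in CPM, -0.02 with TMM sizes and 0.10 with DESeq2 size factors. The 7-day difference was 0.06 (-0.09 to 0.22, adjusted p = 0.624).

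Ttc37 was lower in shDIS3L2 at d0, with 4.34 against 7.95 CPM (0.546-fold, 0.438 to 0.679, from 115 and 317 reads), and level with shLacZ at d2, with 83.8 and 84.0 CPM. At d4, d6 and d8 it was at 54.0, 45.1 and 43.8 CPM in shLacZ and 48.1, 45.1 and 45.2 in shDIS3L2. At d10 and d12 it was higher in shDIS3L2, at 57.8 and 57.5 against 41.6 and 44.2 CPM. The difference over d6 to d12 was 0.22 (0.01 to 0.43, adjusted p = 0.14). The RPKM of Ttc37 over that of Skiv2l was 0.156 in shLacZ and 0.104 in shDIS3L2 at d0, 1.23 and 1.29 at d2, and 0.584 to 0.847 later. For Ttc37 too the deposited length, 5381 bases, is below the 11802 exonic bases of GENCODE M21.

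**Figure D3:**
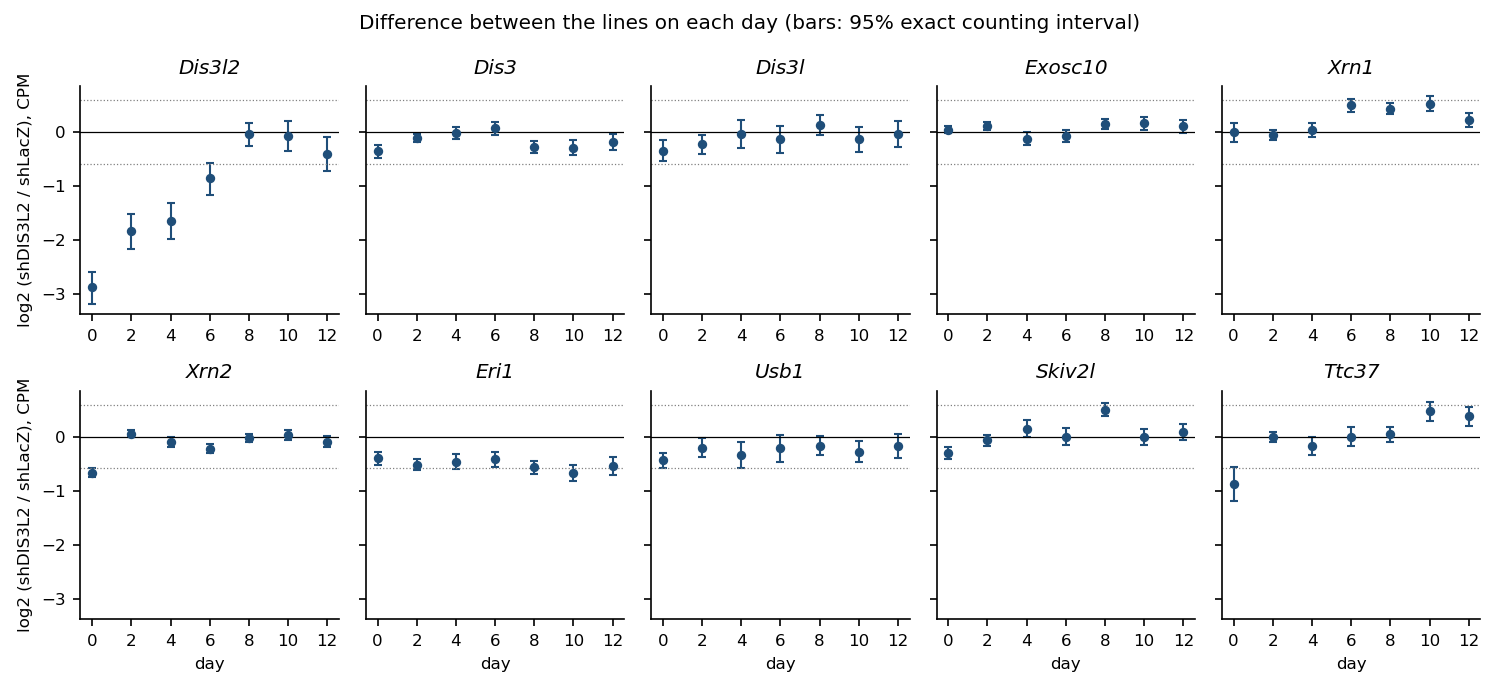
The log2 fold of shDIS3L2 over shLacZ in CPM (vertical axis, shared) on each day (horizontal axis) for the 10 genes. Bars are 95% exact counting intervals and dotted lines mark 1.5-fold. Dis3l2 starts at -2.87 and is past the lower line up to d6, the other genes stay mostly between the lines, and no gene is above the upper one.

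Counted by day, the members seldom reached a 1.5-fold difference. At d0, 3 of the 10 were at least 1.5-fold lower in shDIS3L2 (Dis3l2, Xrn2 and Ttc37), where 29.6% of 12154 listed genes with at least 1 CPM in either library were. At d2, d4 and d6 Dis3l2 was the single member, against 5.71%, 11.0% and 14.9% of genes. At d8 there was none (15.9% of genes), at d10 only Eri1 (17.6%) and at d12 none (10.1%). No member was at least 1.5-fold higher on any day, where the share of genes from d0 to d12 was 3.95%, 2.17%, 4.85%, 14.2%, 20.0%, 22.2% and 20.7%. The count at d0 depends on the scaling, since Xrn2 no longer reached the fold with TMM sizes, nor did Xrn2 or Ttc37 with DESeq2 size factors. Eri1 was past it at d8, d10 and d12 with either.

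**Figure D4:**
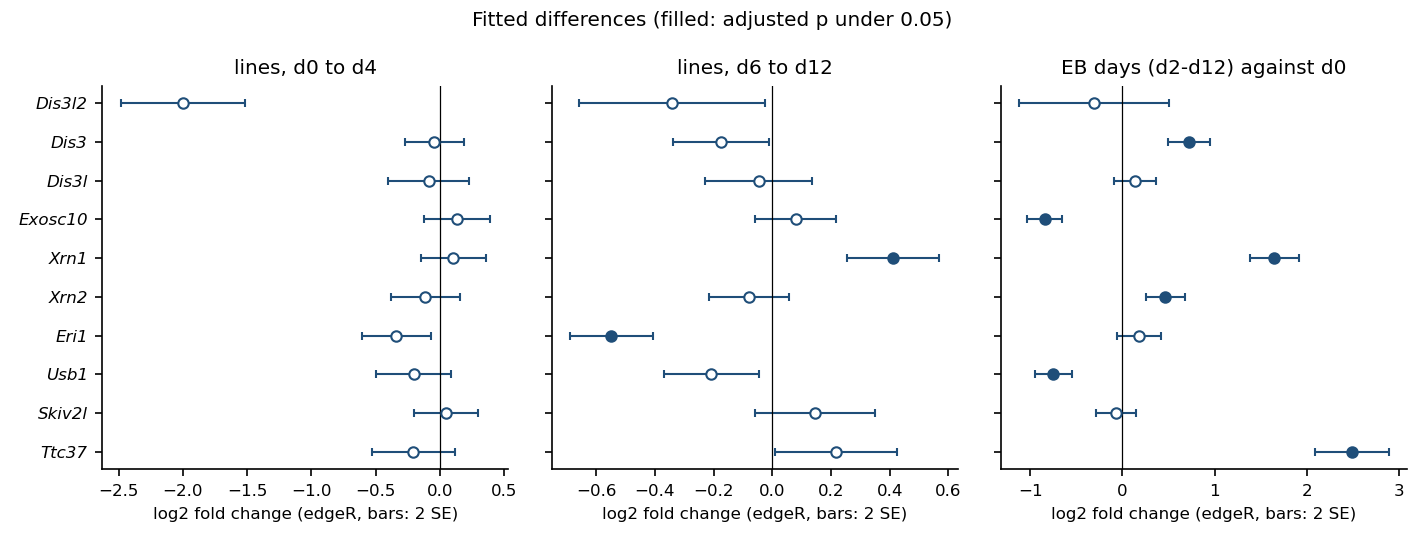
Fitted log2 fold changes of the 10 genes (horizontal axes, each panel with its own scale) for shDIS3L2 against shLacZ over d0 to d4 and over d6 to d12, and for EB days against d0 in both lines. Bars are 2 SE and filled points passed an adjusted p of 0.05 in edgeR. Eri1 (-0.55) and Xrn1 (0.41) are filled in the middle panel, and 6 genes in the right one.

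The largest movements of these genes came with the step from mESCs to EBs, in both lines. Ttc37 rose 10.6-fold from d0 to d2 in shLacZ (9.39 to 11.9) and 19.3-fold in shDIS3L2 (15.97 to 23.5). Xrn1 rose 4.39-fold and 4.23-fold, and Dis3 3.61-fold and 4.27-fold. At this step 47.8% of listed genes were at least 1.5-fold higher in shLacZ and 54.5% in shDIS3L2, and 25.3% and 22.6% at least 1.5-fold lower, while the median gene rose by 0.55 and 0.80 on the log2 scale. With TMM sizes, where these medians were 0.03 and 0.06, the steps of Ttc37 were 7.38 and 11.5-fold, those of Xrn1 3.06 and 2.53-fold and those of Dis3 2.52 and 2.55-fold.

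Across the 6 EB days against d0, with both lines in the fit, Ttc37 was higher by 2.49 (SE 0.20, adjusted p = 1.91e-06), Xrn1 by 1.64 (SE 0.13) and Dis3 by 0.72 (SE 0.11). Xrn2 was higher by 0.46 (SE 0.11, adjusted p = 0.00254). Exosc10 was lower by 0.84 (log2 difference -0.84, SE 0.09) and Usb1 by 0.75 (-0.75, SE 0.10). The other 4 did not pass the test, with 0.18 (SE 0.12) for Eri1, 0.14 (SE 0.12) for Dis3l, -0.07 (SE 0.11) for Skiv2l and -0.30 (SE 0.41) for Dis3l2. These 4 higher and 2 lower of 10 stand beside 42.3% and 36.7% of 16739 genes. With library totals in place of TMM, Eri1, Dis3l and Skiv2l were called higher as well, at 0.82, 0.77 and 0.56, and Exosc10 and Usb1 were not called, at -0.20 and -0.11. The fall of Exosc10 and Usb1 is thus relative to the TMM scale.

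**Figure D5:**
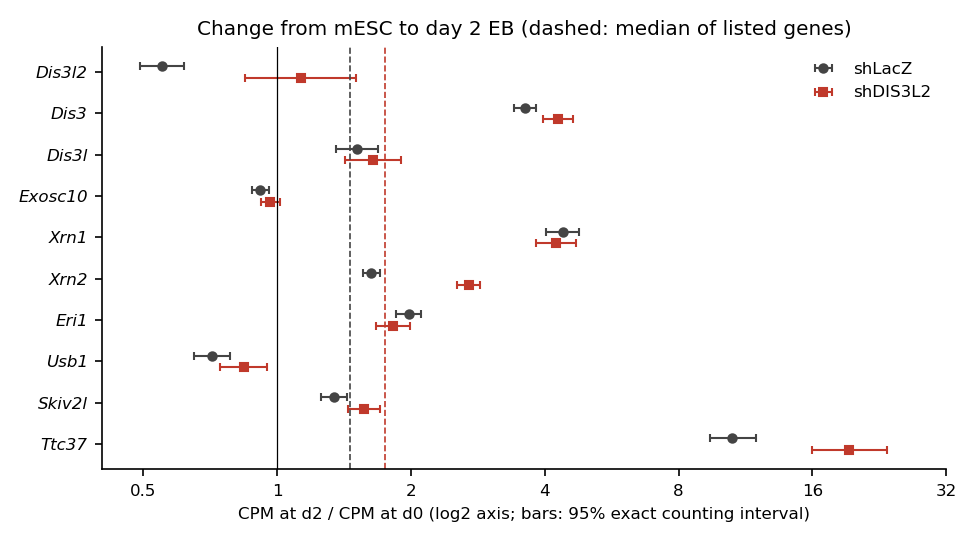
Fold of the CPM at d2 over that at d0 (horizontal axis, log2 scale) for each of the 10 genes in shLacZ (grey circles) and shDIS3L2 (red squares), with 95% exact counting intervals, and the median listed gene as dashed lines. Ttc37, Xrn1 and Dis3 lie far to the right of both medians, and Exosc10 and Usb1 below 1.

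The upstream sequences of the 3 genes that rose most from d0 to d2 are shown to describe what they share. RefSeq (GRCm38.p6) gave a start for 8 of the 10 genes. The 250 bases before the start are printed 5′ to 3′ on the strand of the gene, with capitals at each match on either strand to the GC box GGGCGG, the CCAAT box, the palindrome GCATGC or the ETS motif CCGGAAG. The Ttc37 window is chr13:76098484-76098733 (plus strand), that of Xrn1 chr9:95954510-95954759 (plus) and that of Dis3 chr14:99099771-99100020 (minus).
Ttc37: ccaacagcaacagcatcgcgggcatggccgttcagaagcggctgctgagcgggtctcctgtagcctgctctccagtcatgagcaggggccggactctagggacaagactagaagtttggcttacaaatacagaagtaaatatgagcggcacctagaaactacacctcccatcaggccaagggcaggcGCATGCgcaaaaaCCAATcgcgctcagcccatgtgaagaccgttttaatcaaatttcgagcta
Xrn1: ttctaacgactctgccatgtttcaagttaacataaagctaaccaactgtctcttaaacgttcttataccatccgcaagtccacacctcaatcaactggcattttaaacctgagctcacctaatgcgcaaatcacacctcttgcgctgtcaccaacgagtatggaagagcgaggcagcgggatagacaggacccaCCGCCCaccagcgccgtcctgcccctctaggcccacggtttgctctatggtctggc
Dis3: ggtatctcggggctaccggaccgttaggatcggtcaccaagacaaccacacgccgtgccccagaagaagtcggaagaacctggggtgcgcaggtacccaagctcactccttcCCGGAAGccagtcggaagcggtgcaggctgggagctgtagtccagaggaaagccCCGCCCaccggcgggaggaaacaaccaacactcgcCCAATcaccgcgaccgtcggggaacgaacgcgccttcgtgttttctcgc
The 3 windows had no one of these motifs in common. CCAAT was found in Ttc37 and Dis3, 50 and 49 bases before the start, and in 33.9% of 32851 promoters. GGGCGG was found in Xrn1 and Dis3, and in 32.7% of promoters. GCATGC in Ttc37 (6.70% of promoters) and CCGGAAG in Dis3 (6.91%) overlapped no other match. TATAAA was in none of the 10 windows of members, against 12.4% of promoters. The windows held 13, 12 and 24 CpG for Ttc37, Xrn1 and Dis3, where the median promoter held 6.

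After d2 the genes went different ways. Dis3 fell by 0.12 on the log2 scale per day from d2 to d12 (slope -0.12, SE 0.02, adjusted p = 0.00027), the one slope of a member that was called under all 10 alternatives. Usb1 rose by 0.05 per day (SE 0.01, adjusted p = 0.0158) and Dis3l by 0.03 (SE 0.01, adjusted p = 0.0396). Eri1 (-0.04, SE 0.01), Exosc10 (-0.03, SE 0.01) and Ttc37 (-0.06, SE 0.02) were called lower. Each of these 5 calls was lost when a single day was left out. For Usb1 it was d2 or d10 (0.05 and 0.04), for Eri1 d10 or d12 (both -0.03), and for Dis3l any of d4, d8, d10 and d12 (0.03 to 0.04). For Exosc10 it was any day but d8 (-0.02 to -0.01), and for Ttc37 d8, d10 or d12 (-0.08 to -0.06) and d2, without which its slope was 0.006. These 2 higher and 4 lower of 10 stand beside 23.0% and 27.1% of 16398 genes. In the test of any change over the 7 days, 6 of 10 members were called (Dis3, Exosc10, Xrn1, Xrn2, Usb1 and Ttc37), against 86.4% of genes. Without d0 only Dis3, Usb1 and Ttc37 remained.

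By mean RPKM over the 14 libraries the order was Xrn2 at 39.7 ± 9.24 (SD over libraries), Exosc10 at 31.9 ± 2.65, Dis3 at 23.6 ± 9.72, Skiv2l at 12.2 ± 2.07, Usb1 at 10.0 ± 1.81, Ttc37 at 8.80 ± 4.12, Eri1 at 7.02 ± 1.89, Xrn1 at 4.29 ± 1.55, Dis3l at 4.27 ± 0.820 and Dis3l2 at 1.85 ± 0.815. Of the 9 neighbouring pairs in this order, 5 differed by less than the larger SD of the pair, namely Xrn2 and Exosc10, Exosc10 and Dis3, Usb1 and Ttc37, Ttc37 and Eri1, and Xrn1 and Dis3l. Dis3l2 was the lowest gene in 13 of the 14 libraries, and Xrn1 in the other, shLacZ at d0. Xrn2 was the highest in 12.

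Other genes of RNA decay were described by 8 lists holding 100 genes, of which 97 passed the filter on low counts. Over 7 days 2 were called higher and 4 lower, close to the 1.90% and 4.68% of all genes, with a median log2 difference of -0.06 beside -0.04 for all genes tested. The 4 lower genes were N4bp1 (-0.50, SE 0.07, adjusted p = 0.0138), Mphosph6 (-0.47, SE 0.09), Cnot1 (-0.49, SE 0.11) and Upf3a (-0.34, SE 0.07), and all 4 lie on chromosome 8, like Eri1. Mphosph6 is a cofactor of the nuclear exosome, Cnot1 the scaffold of the CCR4-NOT deadenylase, and Upf3a a factor of nonsense-mediated decay. The 2 higher genes, named after their values were seen, were C1d (0.33, SE 0.08), an exosome cofactor, and Nudt3 (0.34, SE 0.08), a hydrolase.

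Over d6 to d12 8 of the 97 genes were called higher and 26 lower, where 19.7% and 19.2% of all genes tested were. The single lists hold 5 to 21 of these genes. Of the 11 on chromosome 8, 10 were lower and none was higher, where 43.0% of other chromosome 8 genes were lower, and of the 86 elsewhere 16 were lower and 8 higher. Among the genes named below for these lists, Upf1, Upf3a, Cnot1, Lsm4, Lsm6, Papd5, Mphosph6 and N4bp1 lie on chromosome 8. The exosome core had 3 of 8 lower and none higher (median -0.23), led by Exosc5 (-0.51, SE 0.11, adjusted p = 0.011), Exosc2 (-0.31) and Exosc7 (-0.34). In nonsense-mediated decay 5 of 10 were lower, with Upf1, its central helicase, at -0.63 (SE 0.10, adjusted p = 0.00329), Upf3a at -0.33 and Smg5 at -0.40. In deadenylation 4 of 17 were lower and 1 higher, with Cnot1 at -0.63, Tob1 at -0.84 and the catalytic subunit Cnot6l at 0.43. Tob1 (chromosome 11) was lower on all 7 days, at 0.567 against 3.58 CPM at d0 and 23.5 against 43.8 at d12.

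In decapping 6 of 21 were lower and 2 higher, with Lsm4 (-0.70), Lsm6 (-0.51) and Patl2 (-1.18) leading. Most of these 6 lower genes lie on chromosome 8. In this test 19.2% of all genes were called lower and 19.7% higher. Among exosome cofactors 3 of 14 were lower and 1 higher. These were led by Papd5 (-0.73), a poly(A) polymerase, Mphosph6 (-0.54) and Mpp6 (-0.57). The Mpp6 row is the membrane-associated guanylate kinase of that symbol on chromosome 6 and not an exosome cofactor, so it does not belong to the list. Other exonucleases had 1 of 14 lower (Noct, -0.56) and 1 higher (Angel2, 0.32). Endonucleases had 2 of 8 lower (N4bp1, -0.49, and Elac2, -0.41) and 2 higher, among them Zc3h12b (1.14), which stayed at or under 7.02 CPM.

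Of the 5 genes listed for the tailing of RNA, 1 was called higher and 2 lower over d6 to d12, where 19.7% and 19.2% of all genes were. The other 2 did not pass, with 0.05 (SE 0.07, adjusted p = 0.627) for Zcchc6, which encodes TUT7, and -0.16 (SE 0.11, adjusted p = 0.311) for Tut1. Zcchc11, which encodes TUT4, rose from 6.37 CPM at d0 to 93.8 at d2 in shLacZ and from 1.32 to 79.7 in shDIS3L2, and was at 104 and 159 CPM at d12. Its difference over d6 to d12 was 0.56 (SE 0.10, adjusted p = 0.00563). Lin28a was level at d4, at 663 and 680 CPM, and at 320 and 115 CPM at d12, with a late difference of -1.31 (SE 0.24, adjusted p = 0.00693) and a change between the periods of -1.36 (SE 0.33, adjusted p = 0.0267). Lin28b was at 45.4 and 16.8 CPM at d12 (late difference -0.88, SE 0.22, adjusted p = 0.0207). Over EB days against d0 4 of the 5 genes of this list were higher and 1 lower, while 7 of the 8 exosome core genes were lower and none higher. Of all genes 42.3% were higher and 36.7% lower in that test. These calls are relative to the TMM scale. With library totals 69.2% of the calls of all genes were higher, against 53.6% under TMM, and the lists were not counted on that scale. The summed mESC markers were lower in shDIS3L2 on the same late days, at 52.4, 82.1, 146 and 270 CPM against 334, 364, 414 and 381 in shLacZ. Of these markers only Nanog went the other way, and only at d12, at 50.4 CPM in shDIS3L2 against 43.8 in shLacZ. These sums and those of mesenchyme and endoderm given with Xrn1 differ between the same late libraries, and their part in these lists was not tested.

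The 5 genes whose CPM over 14 libraries was most like that of Dis3l2 among 11081 protein-coding genes were Itpkc (Pearson r of log2(CPM + 1) = 0.81), C2cd2 (0.80), Msra (0.80), Rhoa (0.79) and 1700030K09Rik (0.79). Of the members Usb1 came nearest (0.61), at rank 201 of these genes, and Exosc10 had -0.40 (rank 10547). By the log2 fold between the lines over 7 days the nearest 4 were 1190002N15Rik, Rab11fip2, Atf7 and Ttbk2, with r between 0.993 and 0.996, and Ttc37 (0.88) and Xrn1 (0.83) were the nearest members, while Eri1 had -0.74. The points share the libraries and the depth of d0. With TMM-scaled CPM 1 of the 5 named by level and 2 of the 4 named by fold were again among the nearest 5, and r for Xrn1 was 0.49 and for Eri1 -0.92.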

How the data were processed

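PolyA RNA of 14 libraries was measured, 2 lines on 7 days, with groups taken from the sample titles. Subread alignment to GRCm38 and featureCounts gave the deposited counts, which are unnormalized whole reads. The authors also deposited CPM from edgeR for 16181 protein-coding genes. Each value is the count with 0.25 added, divided by the sum over these genes, with no scaling between libraries, and it served only as an alternative. The second line is named shm5 in the deposited columns, and its CPM equals that given for shDIS3L2 in a supplementary table of the study.

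CPM and RPKM were computed here from the counts with library totals and the deposited gene length. Line and day effects were tested over all genes by quasi-likelihood with edgeR 4.0.16 (R 4.3.3), using TMM, the filterByExpr filter and a Benjamini-Hochberg adjusted p under 0.05. Day was a block in the tests of the lines, and line in the tests of days. The filter passed all 10 members. DESeq2 1.42.0, library totals, no filter, listed genes only, no day block and each day left out were the alternatives. With 1 library per line and day, folds on 1 day have exact binomial 95% intervals and no test, and were called at 1.5-fold with at least 1 CPM. Without molecular identifiers PCR copies count as reads, so the intervals and the limit of 3 reads cover counting error only. The fits were tested on simulated data. Other steps used Python 3.11.15.

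The members and the 8 lists were chosen with earlier results of these data known. All members are named, and from each list up to 3 called genes with the smallest p over 7 days or d6 to d12. Of the genes nearest to Dis3l2, 1 is not reported here. Exon overlaps are from GENCODE M21 on GRCm38, and promoter sequences from RefSeq.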

Additional observations from a re-analysis of the deposited data

Results flagged for a closer look

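Dis3l2 stood out because its difference between the lines changed between the 2 periods of the time course, by 1.61 on the log2 scale (SE 0.29, edgeR adjusted p = 0.0118), from -2.001 over d0 to d4 to -0.34 over d6 to d12. None of the other 9 genes passed this test, in which 6.14% of 16739 genes were called higher and 6.41% lower. With such shares a count over 9 genes says little about them. The groups of 1 library were too small to look for outlying libraries.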

How the results depend on the processing

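The tests of the lines pair the 2 libraries of each day by a day block, and the labels give no replicate numbers. Over 7 days, 1102 genes and 1 member were called. DESeq2 called 2500 and 2, and no filter on low counts 2093 and 2. No day block gave 0 and 0, with days left out giving 0 to 2205 genes and 0 to 2 members. Over d6 to d12 6217 genes were called, 3334 without the day block and 3200 to 6480 with a day left out. Over d0 to d4 DESeq2 called 19 genes and 1 member, no filter 241 and 1, listed genes only 1 gene, and days left out 7 to 19 genes with 1 member each. The change between the periods called 2100 genes, 3279 with no filter and 457 to 2192 with a day left out, and Dis3l2 in all 12 alternatives. With library totals 73.2% of its calls were higher, against 48.9% under TMM, and for EB days against d0 69.2% against 53.6%. DESeq2 called 82 genes for the difference of the trend. Members called by the day effect went from 6 to 3 without d0, and by the trend from 6 to 2 with no filter and to between 1 and 5 with a day left out, over which called genes numbered 5154 to 8894. With library totals Dis3l2 and Skiv2l turned to 0.27 and 0.56 over EB days against d0, and the trend of Ttc37 lay between -0.0784 (without d12) and 0.0058 (without d2). Set against the chromosome 8 median, an alternative chosen after seeing the data, Usb1 turned to 0.0362 over 7 days and 0.0678 over d6 to d12. At 2-fold in place of 1.5-fold, 3 in place of 7 member-days were lower. Of the 5 genes nearest to Dis3l2 by level 1 remained with Spearman and 1 with TMM-scaled CPM, and by fold 0 and 2. The cause was not tested for these.

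Over all 10 members and 8 tests, 699 of 810 alternatives kept the direction and the side of the threshold, 35 lost a call, 20 gained one and 56 turned the direction, 1 of them of a called value. The depth behind Dis3l2 was 95 reads at its lowest, in shDIS3L2 at d2, which limits the precision of its folds on single days.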

Other observations

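Chromosome 16, which holds none of the 10 genes, had a line difference in CPM that shrank from d0 to d12. That of Dis3l2 shrank from d0 to d8. The median log2 fold of its genes in CPM was -0.45, -0.29, -0.23, -0.16, -0.12, -0.05 and -0.01 from d0 to d12, while that of chromosome 8 stayed between -0.48 and -0.28. At d2 chromosome 16 had the lowest median in CPM of the 20 chromosomes, and on the other 6 days chromosome 8 did. Among the 5 genes nearest to Dis3l2 in level, C2cd2 lies on chromosome 16 and 1700030K09Rik on chromosome 8, and with TMM-scaled CPM the 5 were Med15 and C2cd2 on chromosome 16 and Tmem161a, Vps4a and Vps37a on chromosome 8. The relation was noticed in these data and was not tested.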
